A study of Mus musculus with 5 samples.

Results

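The genes described here are 10 markers of epicardium and mesothelium: the keratins Krt8, Krt18, Krt19 and Krt7, mesothelin (Msln), the uroplakins Upk3b and Upk1b, the transcription factor genes Wt1 and Bnc1, and the annexin Anxa8. They were taken by symbol from the array annotation and had 17 of the 45101 probe sets of the array; the annotation names 18193 genes in all. Total RNA of clones 30, 1D, 11B, 20B and 42 of mouse cardiac progenitor cells was hybridised to Affymetrix arrays, 1 array for each of the 5 clones. All 5 came from left ventricles of adult mice of strain C67BL/6 (spelled as in the labels), 5 to 6 months old, by magnetic selection for Sca-1 and repeated cloning, and they are labelled as c-kit positive. No clone carried a treatment or an engineered allele and none serves as a control. Each value therefore describes 1 culture of 1 clone, with no replicate and no test, and in bulk RNA fewer cells that make a transcript and less transcript per cell cannot be told apart.

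Epicardium and mesothelium are sheets of flat cells that cover the heart and line the body cavities. They keep an epithelial cytoskeleton of simple keratins, in which 1 type II chain (Krt8 or Krt7) pairs with 1 type I chain (Krt18 or Krt19), and carry mesothelin and uroplakins at their surface. Wt1 is a zinc finger factor needed to form the epicardium and is known for its role when epicardial cells leave the sheet by epithelial to mesenchymal transition (EMT) and give rise to fibroblasts and mural cells.

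The deposited values are ratios on a linear scale. Each probe set was set relative to its own median over the arrays or, where that median was low, to a floor, which then has the ratio 1; this was read from the values and is not stated in the sources. The ratios thus carry differences between clones and no level, and a gene that stays below 1 in all clones is not shown to be absent. A probe set was followed between clones, and is called measured here, if its median was exactly 1 or a clone lay above 1 and if its range exceeded 0.05 log2 units (1 log2 unit is a 2-fold difference). Of the 17 probe sets 9 were measured, for 6 genes: Krt8, Krt18, Krt7, Msln, Upk3b and Anxa8. Krt7, Upk3b and 1 of 2 probe sets of Anxa8 passed only because clone 30 lay above the floor, so that they differ follows from the filter. As a measure of error, 6681 pairs of measured probe sets of the same gene were compared: a clone's deviation from the median of its 4 counterparts differed within a pair with an SD of 0.48 log2 units, or 0.34 for 1 probe set. The arrays differed little in 18 hybridization controls (SD 0.08 log2 units). The ratio of 5' to 3' signal of Actb was low in clone 30 (0.743) and clone 11B (0.597) beside 1.00 to 1.08 elsewhere, and poly-A spikes deviated by 0.45 log2 units in clone 30 and -0.46 in clone 42 (median of 27 probe sets). Kit, the gene of c-kit, had 1 measured probe set, at 1.18 in clone 20B and 0.991 to 1.00 in the other 4 clones; the oct-4 gene Pou5f1 lay below the floor in all clones, and no probe set carries the symbol of the Sca-1 gene Ly6a alone.

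Clone 30 had the highest value of 5 of the 10 genes, Krt8, Krt7, Msln, Upk3b and Anxa8, and of 22.8% of measured genes. The 10 genes were chosen with earlier results of these data known, so this share and those below are no test of the set. Anxa8 lay 5.45-fold and Upk3b 2.26-fold above the next clone, while Krt7, Krt8 and Msln lay 1.87-fold, 1.83-fold and 1.75-fold above it. Krt18, the partner of Krt8, lay at a level shared with many probe sets and could not be read, and Krt19, Upk1b, Wt1 and Bnc1 stayed flat below the floor in all 5 clones. At least 1 log2 unit above every other clone, clone 30 had 2 of the 10 genes (Anxa8 and Upk3b), with 0.647% of 9435 measured genes past the same fold. Both calls rest on probe sets that passed the filter only because clone 30 lay above the floor. With probe sets divided by their own median only, the count was 0. At least 0.5 log2 units above, a threshold chosen after the values were seen, clone 30 had 5 of the 10, with 3.54% of measured genes. Krt7, Upk3b and 1 probe set of Anxa8 again entered through clone 30 alone. Among measured probe sets divided by the floor the share was 6.57%. With probe sets divided by their own median only, 3 of the genes remained. In clones 1D, 11B, 20B and 42 none of the 10 reached 0.5 log2 units above all others, with 2.32%, 1.98%, 1.49% and 2.66% of measured genes in the same order. These counts rest on probe sets whose names end in _a_at, _s_at or _x_at, endings that mark probes shared by several transcripts or with possible cross-hybridization; without them 3 genes could be measured (Krt18, Msln and Anxa8), none was 1 log2 unit above, and 2, Msln and Anxa8, remained at least 0.5 log2 units above in clone 30 (3.53% of 9456 measured probe sets without these endings).

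**Figure D1:**
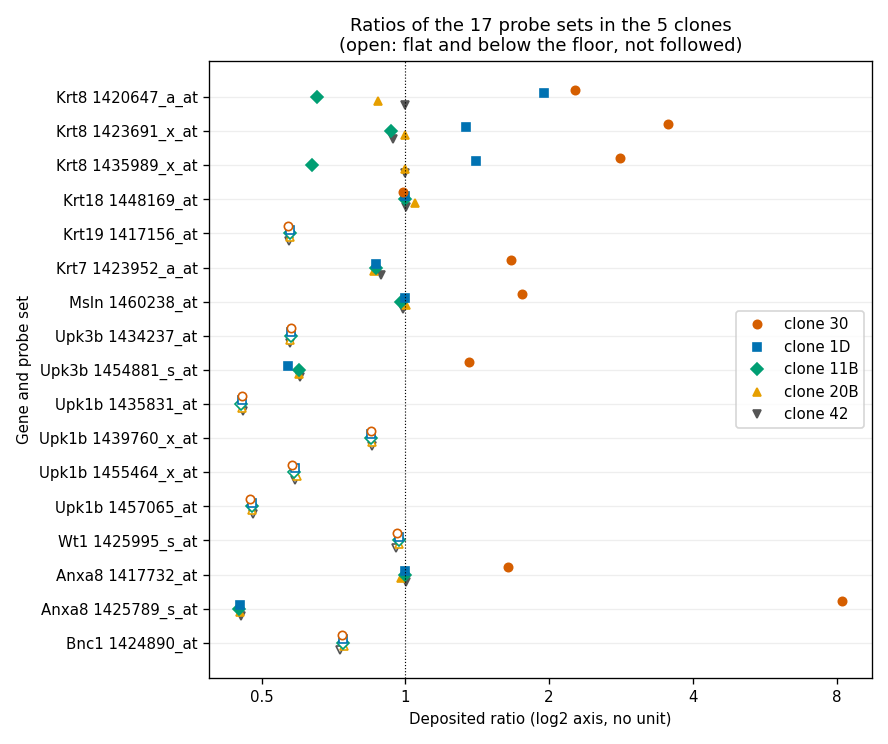
Deposited ratio (log2 axis) of each of the 17 probe sets in the 5 clones, 1 point per array. Filled points are measured probe sets and open points are flat below the floor; the dotted line is a ratio of 1. Clone 30 stands to the right on 8 of the 9 measured probe sets, of which 3 passed the filter through clone 30 alone. Clone 1D lies next to clone 30 only on the probe sets of Krt8.

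Krt8 is the type II keratin of simple epithelia and among the first keratins made in the embryo. On probe set 1420647_a_at its ratio was 2.27 in clone 30, against 1.95 in clone 1D, 0.654 in clone 11B, 0.878 in clone 20B and 1 in clone 42. On 1435989_x_at it was 2.82 in clone 30, against 1.41, 0.638, 0.999 and 1 in clones 1D, 11B, 20B and 42. On 1423691_x_at it was 3.55 in clone 30, against 1.34, 0.935, 1 and 0.943 in the same order. All 3 probe sets thus put clone 30 highest, clone 1D next and clone 11B lowest, and none of their ratios recurred in 3 clones on a probe set of another gene. The mean log2 ratio was 1.50 ± 0.32 in clone 30, 0.63 ± 0.29 in clone 1D, -0.45 ± 0.31 in clone 11B, -0.06 ± 0.11 in clone 20B and -0.03 ± 0.05 in clone 42 (SD over 3 probe sets of 1 array, which may share probes).

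The distance of Krt8 between clones was largest from clone 30 to clone 11B, at 1.95 ± 0.18 log2 units or 3.87-fold (SD over 3 probe sets). This range was wider than that of 98.4% of the measured genes; 13.0% of them ranged over at least 1 log2 unit. Clone 30 exceeded clone 1D by 0.87 ± 0.60 log2 units, but the probe sets disagreed on the size, from 0.22 to 1.40. Clone 1D exceeded clone 11B by 1.08 ± 0.53 log2 units, clone 20B by 0.69 ± 0.40 and clone 42 by 0.66 ± 0.27, so Krt8 had a second, smaller excess in clone 1D. Msln, which could also be read in that clone, was at 1 there. The Anxa8 probe set 1417732_at was at 1 there too, but its ratios in 3 clones recurred on 9 probe sets of other genes. Clones 20B and 42 did not differ beyond the spread of the probe sets (20B minus 42: -0.03 ± 0.14). Clone 42 lay above clone 11B by 0.42 ± 0.36, with 0.01 on 1 probe set. Clone 11B also had the lowest Actb ratio of 5' to 3' signal, 0.597, and the part of RNA quality in its low Krt8 was not tested.

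Krt18 encodes the type I chain that pairs with Krt8, and the 2 genes are neighbours on chromosome 15. Its probe set 1448169_at read 0.989 in clone 30, against 1, 0.998, 1.05 and 1.00 in clones 1D, 11B, 20B and 42. The range was 0.08 log2 units, against 1.95 for Krt8. The closeness of the clones is no measurement, however: the same ratios in 4 of the 5 clones recurred on 485 probe sets of other genes, a level that many probe sets share. Whether Krt18 followed Krt8 could therefore not be read.

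Krt7, a type II keratin of ducts and mesothelium, had the single probe set 1423952_a_at. Its ratio was 1.67 in clone 30, against 0.868 in clone 1D, 0.867 in clone 11B, 0.859 in clone 20B and 0.890 in clone 42. Relative to the median of the others clone 30 had an excess of 0.94 log2 units; these clones spanned only 0.05 log2 units and were below the floor; with the floor in place of their values the excess was 1.67-fold in place of 1.92-fold. Krt19, a type I keratin without the tail domain of other keratins, read 0.568 in clone 30 and 0.570 to 0.574 in the others, all below the floor. Of the 4 keratins, Krt8 alone could thus be compared among all 5 clones.

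The promoters of Krt8, Krt7 and Krt18 are shown because the first 2 were high in the same clone and Krt18 is the neighbour and partner of Krt8. Sequences are from RefSeq, build GRCm38.p6, which has a window for 6 of the 10 genes; each shows 250 bases that end just before the annotated gene start, 5' to 3' on the strand of the gene. Krt8 is at chr15:102004343-102004592 on the minus strand, Krt7 at chr15:101412153-101412402 on the plus strand and Krt18 at chr15:102027966-102028215 on the plus strand. Capitals mark matches on either strand to 6 motifs. They are the core promoter element with the letters TATAAA, the site of Sp1 factors with the letters GGGCGG, an E-box bound by factors of the Snail and ZEB families with the letters CACCTG, the TEAD site with the letters GGAATG, the AP-1 site with the letters TGANTCA and the AP-2 site with the letters GCCNNNGGC.
Krt8: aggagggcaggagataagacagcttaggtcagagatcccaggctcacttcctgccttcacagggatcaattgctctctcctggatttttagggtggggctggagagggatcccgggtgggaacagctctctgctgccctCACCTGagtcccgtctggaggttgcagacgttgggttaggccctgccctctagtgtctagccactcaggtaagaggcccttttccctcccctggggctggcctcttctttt
Krt7: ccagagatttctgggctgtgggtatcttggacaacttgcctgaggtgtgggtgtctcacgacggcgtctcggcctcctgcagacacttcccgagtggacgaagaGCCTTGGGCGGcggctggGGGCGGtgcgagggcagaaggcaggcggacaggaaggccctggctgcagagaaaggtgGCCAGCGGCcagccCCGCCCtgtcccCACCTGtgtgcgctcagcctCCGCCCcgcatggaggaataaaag
Krt18: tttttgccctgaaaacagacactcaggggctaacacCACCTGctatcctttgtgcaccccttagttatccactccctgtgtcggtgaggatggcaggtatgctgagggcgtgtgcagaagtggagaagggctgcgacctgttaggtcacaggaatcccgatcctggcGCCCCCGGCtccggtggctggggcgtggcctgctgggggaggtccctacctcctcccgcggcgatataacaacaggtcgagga
Each of the 3 keratin windows holds a CACCTG, which 17.2% of 32851 windows of this length hold. Krt7 also has 4 Sp1 matches, where 32.7% of all windows hold at least 1, and 2 AP-2 matches, 1 of which overlaps an Sp1 match; Krt18 has 1 AP-2 match, and 13.7% of all windows hold at least 1. A match describes the letters only.

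Msln encodes mesothelin, a surface glycoprotein that is anchored by a lipid and binds the mucin Muc16. Probe set 1460238_at, which has none of the marked endings, read 1.76 in clone 30, against 1, 0.977, 1.01 and 0.989 in clones 1D, 11B, 20B and 42. Clone 30 stood alone, 0.82 log2 units or 1.77-fold above the median of the others, which lay within 0.04 log2 units of each other. The ratios of those clones did not recur in 3 clones on any other probe set. The gap to the next clone, 0.81 log2 units, was larger than that of clone 30 in 98.7% of measured genes. Of the 10 genes, Msln and Anxa8 were the ones with such an excess on an unmarked probe set divided by its own median.

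Anxa8, a member of the annexins that bind phospholipids in the presence of calcium, had the widest range of the 10 genes. On probe set 1417732_at the ratio was 1.64 in clone 30, against 1, 1, 0.981 and 1.00 in clones 1D, 11B, 20B and 42. On 1425789_s_at it was 8.20 in clone 30, against 0.450, 0.449, 0.451 and 0.452. Clone 30 was above the others on both, but the sizes disagreed, at 1.64-fold and 18.2-fold over their median. The other clones did not differ by more than 0.03 log2 units on either. With the floor in place of the low values the second excess was 8.20-fold. On 1417732_at the ratios of 3 of the other clones recurred on 9 probe sets of other genes, and on 1425789_s_at those of all 4 on 4. The mean of both deviations was 2.45 log2 units, and the gap to the next clone exceeded that of clone 30 in 99.96% of measured genes. This rank rests on 1425789_s_at, which passed the filter only because clone 30 lay above the floor. On 1417732_at alone the deviation was 0.72 log2 units. The size rests on the probe set ending in _s_at, whose probes may be shared with other genes, while the direction was the same on both.

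The 2 uroplakins are membrane proteins first known from the bladder lining, and Upk3b is also a marker of mesothelium. Upk3b probe set 1454881_s_at read 1.36 in clone 30, against 0.568 in clone 1D, 0.599 in clone 11B, 0.598 in clone 20B and 0.602 in clone 42. Clone 30 was 2.27-fold above the median of the others, or 1.36-fold above the floor. The second probe set of Upk3b, 1434237_at, was flat below the floor, with 0.575 in clone 30 and 0.572 to 0.576 in the others, so the 2 probe sets disagree. Upk1b, the tetraspanin of the family, had 4 probe sets, all flat below the floor, with ranges of at most 0.03 log2 units.

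Wt1 and Bnc1, a zinc finger gene of basal keratinocytes and mesothelium, stayed flat below the floor. Probe set 1425995_s_at of Wt1 read 0.960 in clone 30 and 0.957 to 0.971 in the other clones, just below the floor. Probe set 1424890_at of Bnc1 read 0.737 in clone 30 and 0.731 to 0.742 in the others. Thus 5 of the surface, annexin and keratin genes were highest in clone 30, as were 22.8% of all measured genes. Among them Krt7, Upk3b and 1 probe set of Anxa8 passed the filter through clone 30 alone, and the second probe set of Upk3b was flat. Both transcription factor genes could not be followed in any clone. Clone 30 is not given a cell type name from these values.

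**Figure D2:**
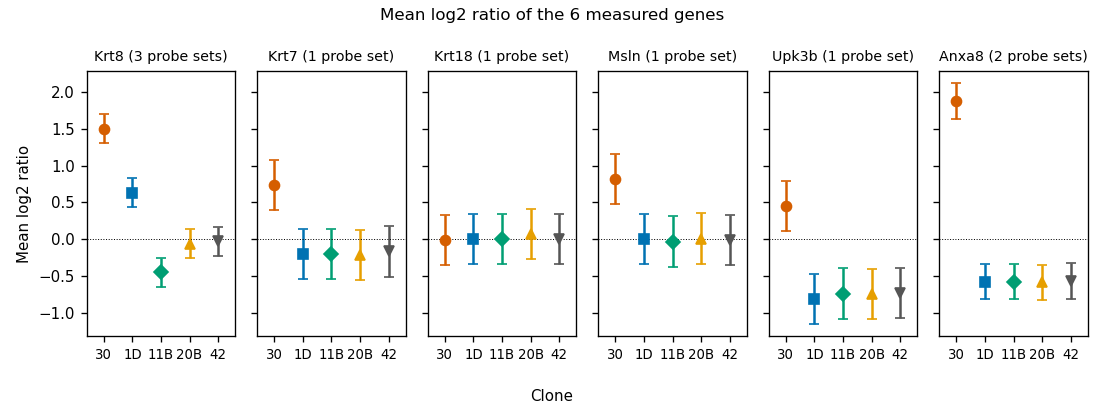
Mean log2 ratio over the measured probe sets of each of the 6 measured genes, by clone. Bars are ± 0.34 log2 units divided by the square root of the number of probe sets, the spread between probe sets of the same gene over the whole table, and cover neither culture nor RNA preparation. For Anxa8 they are too short: its 2 probe sets had an SD of 1.64 log2 units in clone 30 and 0.79 to 0.82 in the others. The bars of clone 30 do not overlap those of the other clones for Krt8 and Msln. For Krt7, Upk3b and 1 probe set of Anxa8 the other clones lie below the floor and the separation follows from the filter; the flat second probe set of Upk3b is not drawn, and for Krt18 all bars overlap.

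The promoters of Anxa8 and Upk3b are shown because these genes had the largest gaps between clone 30 and the next clone. Anxa8 is at chr14:34085729-34085978 on the plus strand and Upk3b at chr5:136038246-136038495 on the plus strand, again 250 bases of GRCm38.p6 from RefSeq before the gene start, with the same motifs in capitals.
Anxa8: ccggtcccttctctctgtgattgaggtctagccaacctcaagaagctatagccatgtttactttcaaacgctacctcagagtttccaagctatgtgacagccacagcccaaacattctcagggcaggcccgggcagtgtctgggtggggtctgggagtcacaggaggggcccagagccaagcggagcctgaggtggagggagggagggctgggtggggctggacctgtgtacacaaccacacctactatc
Upk3b: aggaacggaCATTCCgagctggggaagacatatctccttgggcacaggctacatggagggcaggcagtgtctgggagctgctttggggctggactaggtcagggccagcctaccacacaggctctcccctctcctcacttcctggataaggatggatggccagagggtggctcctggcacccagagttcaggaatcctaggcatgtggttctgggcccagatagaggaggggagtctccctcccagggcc
None of the 6 motifs was found in the Anxa8 window, and 1 TEAD match in that of Upk3b, which 12.6% of all windows hold. The CACCTG of the keratin windows above is in neither. TATAAA (12.4% of all windows) and TGANTCA (6.75%) were in none of the 5 windows shown. The missing letters say nothing about the factors.

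Across the 6 measured genes the median deviation was 1.06 log2 units in clone 30, from -0.02 for Krt18 to 2.45 for Anxa8, and -0.01 over all measured genes. Since 3 of the 9 measured probe sets entered through clone 30 alone, this median is not a test of the set. In the other clones it lay between -0.01 and 0.01. With every probe set of the 10 genes averaged, flat ones included, the median in clone 30 was 0.29. Poly-A spikes were also higher in clone 30, by 0.45 log2 units, whereas hybridization controls were not (-0.04); the part of the spikes in these differences was not tested.

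**Figure D3:**
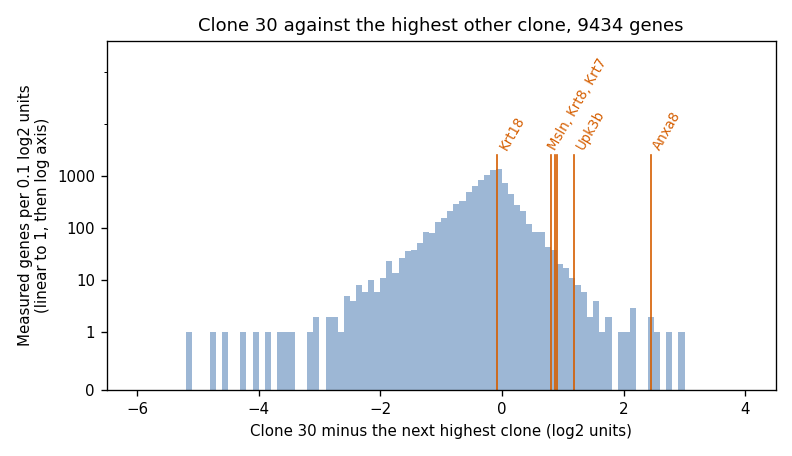
Number of measured genes (log axis above 1) by the difference between clone 30 and the highest other clone, in log2 units, in bins of 0.1 log2 units. Vertical lines mark the 6 measured genes: Krt18 at -0.08 lies in the bulk, and Msln (0.81), Krt8 (0.87), Krt7 (0.91), Upk3b (1.18) and Anxa8 (2.45) lie in the upper tail. Krt7, Upk3b and 1 probe set of Anxa8 passed the filter only because clone 30 lay above the floor.

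Genes with the nearest pattern over the 5 clones were sought for the 3 genes that ranged over 1 log2 unit or more, by the root mean square difference after each gene was centred on its median. Closest to Krt8 were Crip2, a LIM domain protein, at 0.09 log2 units, and Jdp2, a repressor of AP-1 transcription, at 0.17. Crip2 had log2 ratios of 1.49 in clone 30, 0.63 in clone 1D, -0.60 in clone 11B, -0.12 in clone 20B and 0 in clone 42, the same order as Krt8. Only 6 genes came within 0.3 log2 units of Krt8. Closest to Anxa8 were Myrf, a membrane-bound transcription factor, at 0.02, and the kinase gene Dapk2 at 0.15, again with 6 genes within 0.3. The Anxa8 pattern is the mean of 2 probe sets that deviated by 0.72 and 4.19 log2 units in clone 30. These distances and the count hold for that mean and for neither probe set. Upk3b had Ptrhd1 (0.04) and Raver1 (0.04) nearest, but 265 genes came within 0.3, many more than for Krt8 or Anxa8, where 9435 genes were measured in all.

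Few other genes of epicardium and mesothelium could be followed. Of a list of 29, 27 had a probe set and 10 were measured. Of these 10, 2 ranged over at least 1 log2 unit. Among all measured genes 13.0% did, the share to set beside the list counts below as well. The median range was 0.38 against 0.41 over all measured genes. Igfbp6, which binds insulin-like growth factor 2, read 1.59 in clone 30, against 0.997, 1.05, 1 and 0.702 in clones 1D, 11B, 20B and 42. It was the only gene of the list at least 0.5 log2 units above all others in clone 30, beside 3.54% of all measured genes. Bnc2, the paralogue of Bnc1, was instead highest in clone 11B: on probe set 1438861_at it read 2.70 there, against 1.02 in clone 30, 0.538 in clone 1D, 1 in clone 20B and 0.599 in clone 42. A further probe set of Bnc2, 1444646_at, showed 1.08 in clone 11B, against 0.953 to 0.960 in the others. Slc9a3r1, a scaffold of microvilli, and the heart transcription factor gene Gata4 ranged over 0.55 and 0.44 log2 units.

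Other genes of the same families ranged over less than 1 log2 unit. Of 21 other keratin genes with a probe set 4 were measured and none ranged over 1 log2 unit, with Krt79 at 0.44, Krt6a at 0.34, Krt10 at 0.19 and Krt222 at 0.08. Of 3 other uroplakins only Upk1a was measured, with a range of 0.33. Of 10 other annexins 7 were measured and none reached 1 log2 unit in the mean of its probe sets. Anxa6 had 0.66, Anxa5 0.61, Anxa7 0.48 and Anxa2 0.38, and clone 30 was highest for Anxa6, Anxa7 and Anxa2, and for 22.8% of all measured genes. Anxa6 on probe set 1415818_at read 1.40 in clone 30, against 0.672, 0.864, 1 and 1.17 in clones 1D, 11B, 20B and 42. That probe set alone ranged over 1.06 log2 units, and the other measured probe set of Anxa6 over 0.68.

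Genes of epithelial junctions and polarity also ranged over little. Of 22 such genes with a probe set 8 were measured, none ranged over 1 log2 unit and the median range was 0.17. Tjp1, the tight junction scaffold ZO-1, ranged over 0.60 and was highest in clone 11B, at 1.34, against 1.05 in clone 30 and 0.889 to 1 in the other clones. Grhl2, a factor of epithelial gene expression, ranged over 0.36, the polarity gene Pard6b over 0.29 and the desmosomal cadherin gene Dsg2 over 0.21.

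Factors of EMT repress epithelial genes, in part through E-boxes such as CACCTG. All 7 in the list were measured and 2 ranged over 1 log2 unit, Zeb2 and Snai2, beside 13.0% of all measured genes. Zeb2 on probe set 1434298_at read 0.327 in clone 30 and 0.334 in clone 42, whereas clones 1D, 11B and 20B read 1.15, 1.78 and 1. On 1422748_at it read 0.476 in clone 30 and 0.304 in clone 42, against 1.76, 1 and 1.17 in clones 1D, 11B and 20B. Zeb2 was therefore low in both clones 30 and 42, while Krt8 was high in clones 30 and 1D. The remaining measured probe set of Zeb2, 1456389_at, varied less, with 0.989 in clone 30 and 0.785 in clone 42, against 1 to 1.15 in the others. Snai2 had its highest value in clone 30: 1.95 on probe set 1418673_at, against 1, 1.46, 0.496 and 0.890 in clones 1D, 11B, 20B and 42. On 1447643_x_at it varied less, with 1.23 in clone 30, against 0.997, 1, 1.08 and 0.993 in the same order, a range of 0.31 log2 units. Zeb1 was lowest in clone 11B (0.648) on the 1 measured of its 4 probe sets. Below the floor, its probe sets 1420243_at and 1443005_at read highest in clone 11B instead, at 0.646 and 0.859. Twist1 was highest in clone 1D (1.61), on 1 probe set.

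Among other intermediate filament genes and their linkers 12 of 18 were measured and 4 ranged over 1 log2 unit, beside 13.0% of all measured genes. Vim, the filament protein of mesenchymal cells, was highest in clone 11B, the clone with the lowest Krt8. On probe set 1438118_x_at Vim read 2.11 in clone 11B, against 1.12 in clone 30, 0.674 in clone 1D, 1 in clone 20B and 0.590 in clone 42, and its other 2 probe sets gave the same highest and lowest clones. Clone 30, with the highest Krt8, was 0.32 log2 units above the median of the others for Vim in the mean of 3 probe sets. Sync, a muscle filament protein, was lowest in clone 30 at 0.393, against 1.13, 1, 1.01 and 0.807 in clones 1D, 11B, 20B and 42, on 1 of 3 probe sets. The lamin genes Lmnb1 and Lmnb2 ranged over 1.10 and 1.09 and were highest in clone 42.

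**Figure D4:**
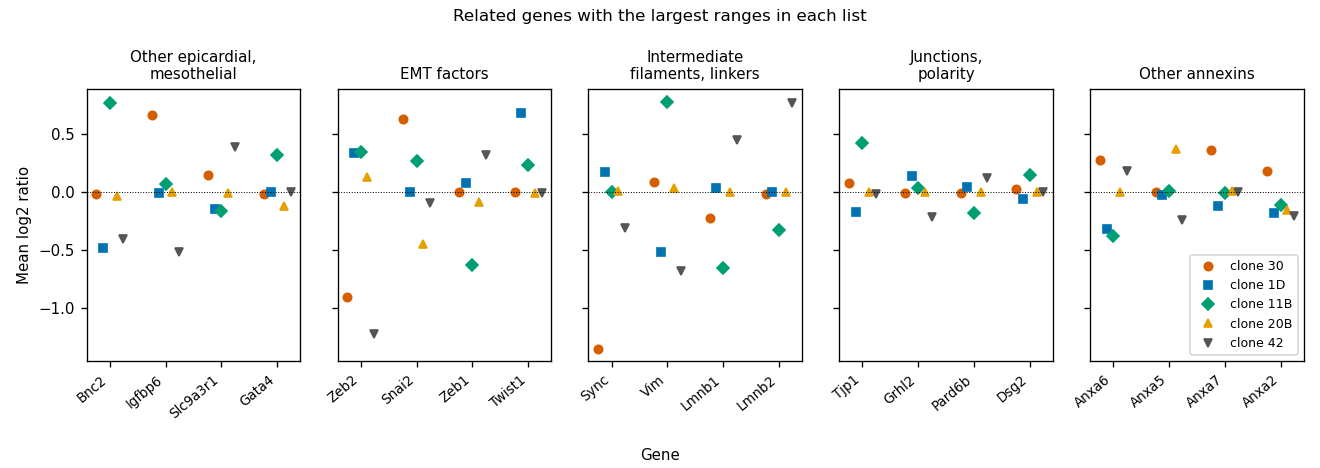
Mean log2 ratio by clone of the 4 genes with the largest range in each of 5 related lists, 1 point per clone. Clone 30 is highest for Igfbp6 and Snai2 and low together with clone 42 for Zeb2; no junction gene or other annexin spreads over 1 log2 unit in these means.

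Markers of other cell types were read in the same way. Of 10 endothelial markers 1 was measured (Egfl7) and of 10 leukocyte markers 3 (Adgre1, Csf1r and Cd3e), all with ranges of at most 0.24 log2 units, and of 7 markers of stratified and other epithelia 2 (Grhl2 and Epcam), with at most 0.36. Clone 30 was highest for 22.8% of all measured genes, the share to set beside the next counts. Of 9 cardiomyocyte markers 4 were measured, and clone 30 was highest for 3 of them: Myh7 with 1.26, against 0.991 to 1.00 in the others, Actc1 with 1.08 and Tnnt2 with 1.02. These 3 ranged over 0.34, 0.12 and 0.08 log2 units, no more than the error of 1 probe set (0.34). Myh6 had the widest range, 0.56, with clone 42 highest at 1.385 and clone 30 lowest at 0.939, close to the remaining clones (0.943 to 0.970). Of 8 markers of smooth muscle and pericytes 4 were measured, and clone 30 was highest for all 4; the actin-binding protein gene Tagln read 3.56 in clone 30, against 0.875, 1.51, 0.995 and 1 in clones 1D, 11B, 20B and 42. The muscle filament gene Des read 1.30 in clone 30, against 0.826, 0.995, 1 and 1.00 in the same order, a range of 0.65. Acta2 and Myh11 ranged over 0.26 and 0.07, less than the error of 1 probe set, so the highest clone cannot be told for them. Of 10 fibroblast markers 5 were measured. The widest differences were low values of Col3a1 (-6.45) and Col1a1 (-2.17) in clone 42, as log2 deviations from the median of the others. Col3a1 rests on 1 of 2 probe sets. The other, 1427884_at, lay below the floor, with 0.801 in clone 42 against 0.798 to 0.992. For Col1a1 the 2 probe sets disagreed on the size, with 0.105 and 0.498 in clone 42. Clone 30 deviated by -0.32 and 0.42 for these 2 collagens. Pdgfra, a growth factor receptor, ranged over 1.30 and deviated by 0.65 in clone 30 and 0.99 in clone 42. Tagln and Des were thus highest in clone 30 together with Anxa8, Upk3b, Krt7, Krt8 and Msln, and the part of cell makeup in their differences was not tested.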

How the data were processed

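RNA of 5 clones was measured on Affymetrix arrays, 1 per clone. The deposited table holds a ratio for each of 45101 probe sets, divided by the authors by the median or a floor, as read from the values: the median was exactly 1 for 42.0% of probe sets and above 1 for 0. Per the submitters' processing notes RMA and GCRMA were involved, with no role or version given; the sources used here do not give the division, scanner files were not used here, and the number of arrays limits the precision.

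Probe sets with 1 gene symbol in the supplied platform annotation (34945) were kept. Log2 ratios of the measured probe sets of a gene were averaged (Python 3.11.15, pandas 2.3.3). Range, deviation from the median of the other clones and gap to the next clone were described against 9435 measured genes, with no test. The members and lists were chosen with earlier results of these data known. Named are all 10 members, the 2 genes nearest to each member that ranged over 1 log2 unit, and the 4 (marker lists: 3) genes of widest range in a list; Myh11, Kit, Pou5f1 and Ly6a were added after values were seen. The calculations were tested on simulated ratios. Alternatives changed the probe sets used, the normalization, the filters, the threshold and the clones included.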

Additional observations from a re-analysis of the deposited data

How the results depend on the processing

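Of the 10 genes, 3 ranged over 1 log2 unit and 2 were called in a single clone. Without probe sets ending in _s_at, _x_at or _a_at both counts were 0; with probe sets divided by their own median only they were 1 and 0. With every probe set averaged, and likewise with no filter, 1 was called in a single clone, and so with the floor in place of lower values. At 2 log2 units both counts were 1 and at 0.5 log2 units, a threshold added after seeing the data, both were 5. Leaving out each clone in turn gave 1 to 3 and 0 to 3: without clone 30 only Krt8 ranged over 1 log2 unit and none was called, and without clone 1D Krt8 was called in clone 30. The 5 genes at least 0.5 log2 units above the others in clone 30 became 2 without the marked probe sets, 3 with own-median probe sets and 4 with the floor in place of lower values, where Upk3b fell to 0.44, and were 5 without each of the other clones. The median deviation in clone 30 was 0.29 with every probe set or no filter and 0.72 without marked probe sets, and 1.06 to 1.18 when another clone was left out; that in clone 1D was -0.0066 to 0.34, the highest without clone 30. The related lists had 8 genes over 1 log2 unit, 3 with every probe set or no filter, 12 with the probe set of largest range and 4 to 8 without a clone. Over all settings that measured them the deviation in clone 30 was 1.33 to 1.56 for Krt8, 0.74 to 0.95 for Krt7, 0.74 to 0.83 for Msln, 0.44 to 1.19 for Upk3b and 0.72 to 4.19 for Anxa8. Over all genes 1229 of 9435 (13.0%) ranged over 1 log2 unit, and 681 of 18193 (3.74%) with every probe set or no filter. The share was 21.2% (2000 of 9435) with the probe set of largest range, 12.7% without marked probe sets and 14.2% with own-median probe sets. Without clone 30 it was 9.35%. In the main setting 1.52% ranged over at least 2 log2 units, and 1.59% had a clone at least 1 log2 unit above all others. No paired analysis was possible because each clone has 1 array. Krt19, Upk1b, Wt1 and Bnc1 lay below the floor, where differences cannot be read.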
